A study of Mus musculus with 12 samples.

Results

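The 10 DNA damage response genes Atm, Atr, Prkdc, Chek1, Chek2, Trp53, Mdm2, Cdkn1a, Trp53bp1 and Mdc1 were followed in the RNA of macrophages that had received miRNA-loaded extracellular vesicles (EVs). They are 10 of the 35865 genes to which the quantified transcripts belong, and all 10 are among the 13906 genes that passed the filter on low counts. They were chosen by name, and Atm leads them because its level had differed from control in all 3 miRNA groups in an earlier analysis of these same libraries, so its values in those comparisons are given below as a description and not as a test. The 12 libraries are poly(A) RNA-Seq of the mouse macrophage line RAW264.7, harvested 48 h after EVs were added at 3 µg of EV protein per ml. The EVs came from MS-1 cells, a mouse endothelial line, and had been electroporated with 1 synthetic miRNA mimic each, namely miR-222-3p, miR-142-5p or miR-183-5p, or the worm miRNA cel-miR-67 as control. These groups are called ctrl-EVs, miR-222-3p-EVs, miR-183-5p-EVs and miR-142-5p-EVs, with 3 libraries each, numbered 1 to 3 in the sample titles. All libraries come from a single cell line that received EVs, and no untreated cells are among them. The labels do not say whether the numbered libraries came from separate cultures, and the study's methods say only in general terms that experiments were repeated, so the p-values below measure the spread between these libraries, which may be technical.

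ATM, ATR and DNA-PKcs (the product of Prkdc) are large protein kinases of the same family. ATM and DNA-PKcs act at DNA double-strand breaks, ATR at stretches of single-stranded DNA, and they pass the signal to the checkpoint kinases CHK2 and CHK1 and to p53, the product of Trp53. p53 then raises transcription of a set of genes that includes Cdkn1a, which stops the cell cycle, and Mdm2, whose protein removes p53 again. Much of this signalling runs through protein phosphorylation and protein stability, which RNA-Seq does not measure.

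Depth was 16294611 to 22974853 estimated counts per library, and 12849 to 13353 genes had at least 10 counts. All 9 macrophage markers examined passed the filter, with a summed level of 860 to 1207 TPM, Salmon's length-scaled transcript level. Of 9 endothelial markers 5 passed and 1 was at 0 throughout, with a summed level of 15.0 to 34.1 TPM. Libraries with the same number deviated together: correlations of their deviations from the group means were 0.409 to 0.797 in all 18 pairs of libraries that share a number and −0.628 to 0.228 in the 36 pairs that do not. Tests were therefore read both without the number and with it as a block. Control library 3 stood apart from the others of number 3. Among 378 genes with a mean transcript length of at least 7000 nt, the median log2 ratio to ctrl-EVs of CPM, estimated counts scaled to library total, was 0.44 to 0.46 for the 3 miRNA-EV libraries of number 3, against −0.07 to 0.03 in numbers 1 and 2. In the 5051 genes under 2000 nt the number 3 ratios were −0.13 to −0.10. Results that rest on this library are given with and without it.

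**Figure D1:**
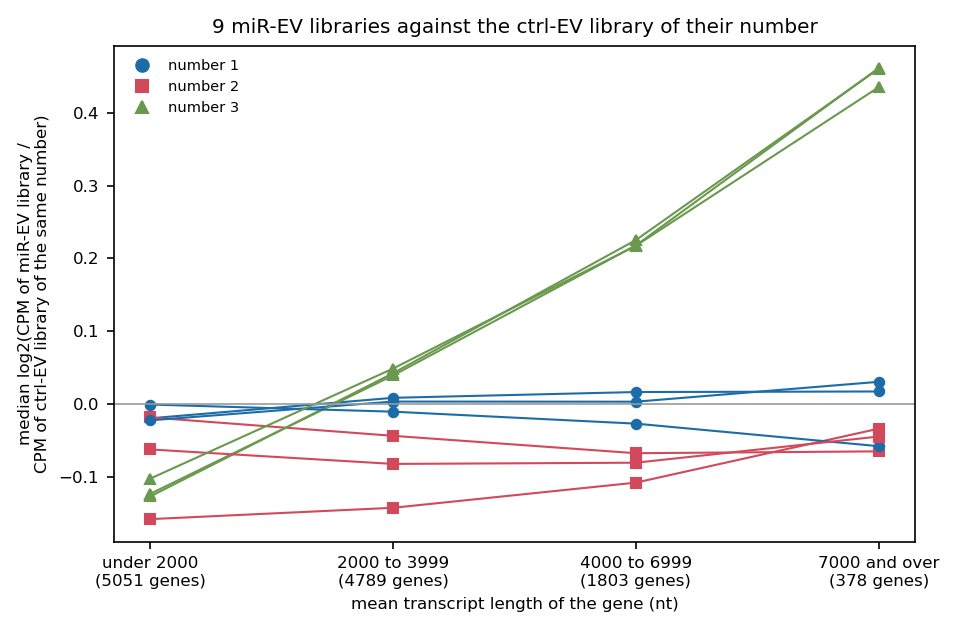
Median log2 ratio of CPM between each miRNA-EV library and the ctrl-EVs library of the same number, in 4 bins of mean transcript length (nt), with 1 line per library. The 3 libraries of number 3 climb from −0.13 to −0.10 for genes under 2000 nt to 0.44 to 0.46 for genes of at least 7000 nt, while those of numbers 1 and 2 stay within −0.16 and 0.03.

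The sequences on which the isoform results turn are shown first. Atm lies on chromosome 9 (53439149 to 53536740, minus strand, GRCm38), and most of its reads went to the full-length protein-coding transcript Atm-201 of 9819 nt. Atm-202 is a non-coding retained-intron transcript of 281 nt from chr9:53440105-53442560, and 242 of its bases are also exons of Atm-201. The 39 intronic bases that set it apart, which lie just upstream of exon 59 of Atm-201, are in capitals. Atm-204 is another retained-intron transcript, of 1243 nt, of which 100 bases are shown where it runs out of exon 6 of Atm-201 into the intron, with intronic bases in capitals (chr9:53521988-53522087). Atr-213 is a protein-coding transcript of Atr that keeps 18 extra bases at the end of exon 27, shown in capitals with 30 bases on each side (chr9:95908413-95910508). It also starts and ends at other positions than the main transcript, Atr-201. In all, 155 of its bases are absent from Atr-201, and 109 bases of Atr-201 are absent from it. All 3 sequences are from the GENCODE transcripts and the GRCm38 genome.
Atm-202: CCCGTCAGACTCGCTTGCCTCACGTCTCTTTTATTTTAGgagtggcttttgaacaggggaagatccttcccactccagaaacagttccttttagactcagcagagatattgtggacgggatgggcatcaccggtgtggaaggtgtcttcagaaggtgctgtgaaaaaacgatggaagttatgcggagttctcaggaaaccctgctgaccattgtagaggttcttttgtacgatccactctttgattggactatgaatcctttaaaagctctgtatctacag
Atm-204, exon 6 into intron: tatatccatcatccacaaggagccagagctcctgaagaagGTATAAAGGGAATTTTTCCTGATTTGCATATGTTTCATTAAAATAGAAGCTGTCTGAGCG
Atr-213, exon 27 into exon 28: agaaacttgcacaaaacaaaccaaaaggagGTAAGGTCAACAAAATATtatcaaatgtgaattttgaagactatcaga

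To see whether the delivered miRNAs could pair with the members, their seeds (bases 2 to 8, in capitals) were searched as perfect 7-base matches in the 3′ UTR of the main coding transcript of each member. The 3 mature mouse sequences, from RefSeq, share no seed.
mmu-miR-142a-5p: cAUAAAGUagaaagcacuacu
mmu-miR-183-5p: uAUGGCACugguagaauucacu
mmu-miR-222-3p: aGCUACAUcuggcuacugggucu
The miR-142a-5p match, ACTTTAT, was found in 1 of the 9 members whose main coding transcript has an annotated 3′ UTR (Trp53bp1-208 has none, and that of Atr-201 is only 20 bases), against 13.95% of 12573 3′ UTRs. That member was Prkdc, at chr16:15842062-15842090 on the plus strand of GRCm38, with the match in capitals.
Prkdc 3′ UTR: agaggaaatctACTTTATggtgctggcga
The miR-183-5p match GTGCCAT (8.9% of UTRs) and the miR-222-3p match ATGTAGC (9.40%) were in 0 of these 9. Such matches are a description of these letters in the sequence, not evidence of binding.

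Levels per length, summed over all transcripts of a gene, ordered the members as follows over the 12 libraries (mean TPM ± SD, n = 12). Trp53 was highest at 125 ± 32.8, then Cdkn1a at 93.0 ± 22.8 and Mdm2 at 68.8 ± 16.3. The adaptor genes Trp53bp1 and Mdc1 followed at 65.5 ± 10.6 and 55.7 ± 14.2. Atm (28.3 ± 7.003), Atr (28.3 ± 3.92), Chek2 (27.4 ± 3.04) and Chek1 (25.4 ± 6.02) were close together, and Prkdc was lowest at 7.37 ± 2.49. The ranges over libraries of each pair of neighbours in this order overlapped, except for Chek1 and Prkdc. The lowest library of Chek1 was at 15.5 TPM, and the highest of Prkdc was at 10.9. Over protein-coding transcripts alone these ranges overlapped as well, at 3.77 to 14.7 TPM for Chek1 and 3.9 to 10.6 TPM for Prkdc.

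**Figure D2:**
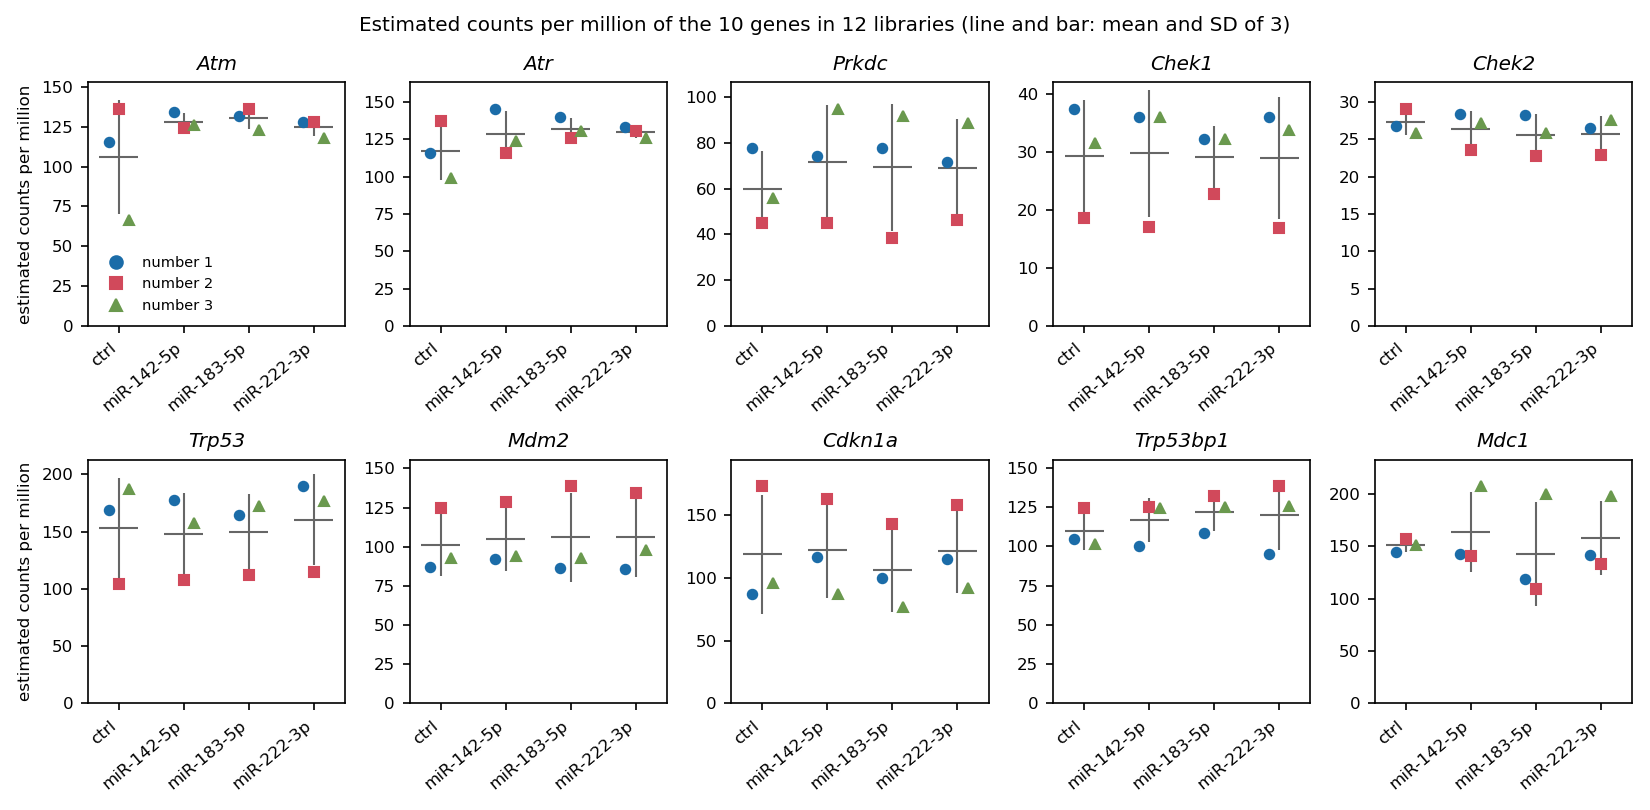
Level (CPM) of each of the 10 members, 1 panel per gene, with 1 point per library placed by EV group and marked by library number, and with lines and bars for the mean and SD of 3. Atm is lowest in control library 3 (66.7 CPM), and Cdkn1a and Mdm2 are highest in the number 2 library of each group.

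Atm, the kinase that responds to double-strand breaks, was higher in miRNA-EV libraries than in ctrl-EVs once transcript length was taken into account, and less so in plain read counts. Its TPM was 22.5, 24.2 and 13.95 in ctrl-EVs 1 to 3, 33.4, 36.8 and 26.7 in miR-142-5p-EVs, 25.7, 33.0 and 26.7 in miR-183-5p-EVs, and 29.3, 40.5 and 26.96 in miR-222-3p-EVs. All 9 miRNA-EV libraries were above all 3 controls on this scale, and control library 3 was lowest by a wide gap. In CPM, which ignores length, Atm was at 115, 136 and 66.7 in ctrl-EVs, 135, 124 and 126 in miR-142-5p-EVs, 132, 137 and 123 in miR-183-5p-EVs, and 128, 128 and 118 in miR-222-3p-EVs. On the CPM scale the groups overlapped, since control library 2 was above 8 of the 9 miRNA-EV libraries. Control library 1 lay just under the lowest of them, and control library 3 far below.

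In log2 fold changes over ctrl-EVs, fitted by DESeq2 on length-adjusted counts without the number, Atm stood at 0.67 ± 0.33 (SE, n = 3 against 3) in miR-222-3p-EVs, 0.64 ± 0.33 in miR-142-5p-EVs and 0.49 ± 0.33 in miR-183-5p-EVs. With all 9 miRNA-EV libraries against 3 it was 0.60 ± 0.25. With the number as a block the estimates were almost the same with smaller errors, at 0.66 ± 0.11, 0.65 ± 0.11, 0.50 ± 0.11 and, for all 9, 0.60 ± 0.09. The 3 comparisons share the same control libraries. When the counts were taken without the length adjustment, the blocked values were 0.29, 0.32 and 0.37 in the same order, and 0.33 ± 0.11 for all 9. When only protein-coding transcripts were kept, the blocked value for all 9 was 0.31 ± 0.12. Without control library 3 the blocked value stayed at 0.53 ± 0.11 on length-adjusted counts, but was 0.10 ± 0.07 when length was left out. Thus the size of the Atm difference depended on the length adjustment and, without that adjustment, on control library 3.

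**Figure D3:**
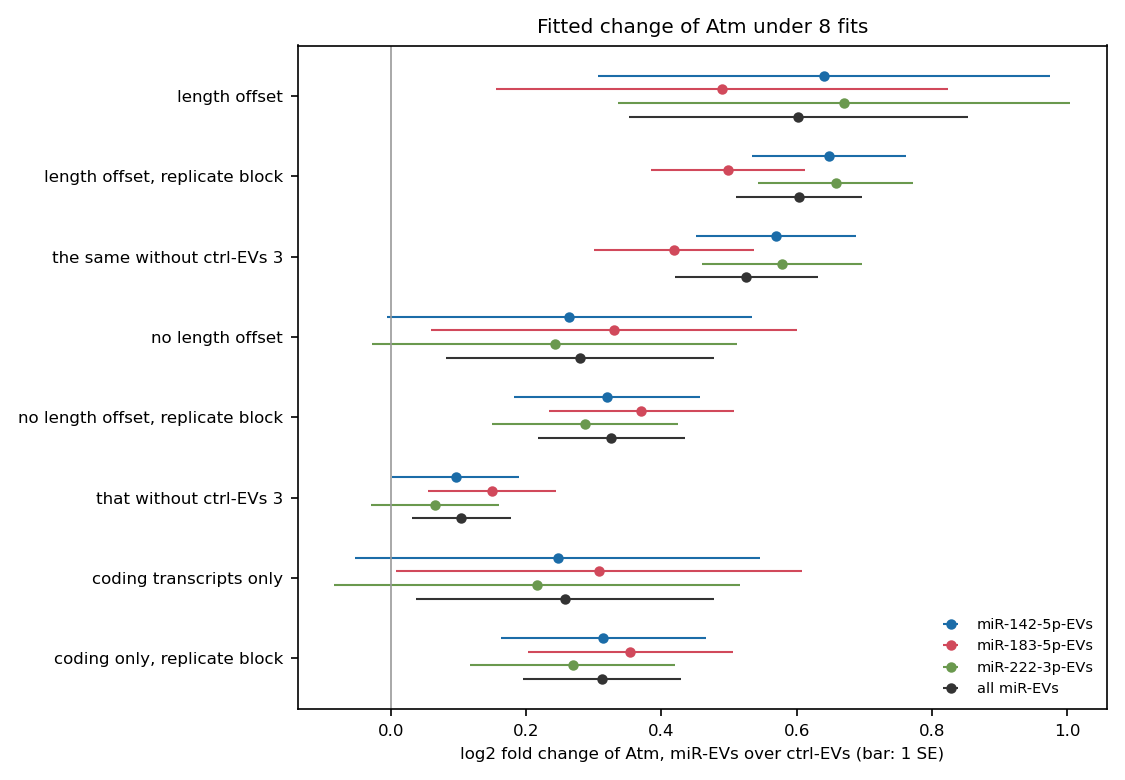
Log2 fold change of Atm in miRNA-EV over ctrl-EV libraries (points, with bars of 1 SE) under 8 fits, with 1 colour for each comparison. The 3 upper fits, with the length offset over all transcripts, lie between 0.42 and 0.67, and the blocked fit with neither length offset nor control library 3 is at 0.10 for all 9 miRNA-EV libraries.

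The length adjustment acted on Atm through its short transcripts. Atm-201 held 49.0% of Atm TPM and 82.2% of its reads, and the other long coding transcript, Atm-206 (9787 nt), held 9.69% and 16.0%. Atm-202, the 281-nt transcript printed above, held 34.6% of the TPM with only 0.642% of the reads, because its effective length was 101 to 111 nt. Its estimated reads were 8.5, 8.4 and 8.8 in ctrl-EVs, 23.4, 23.7 and 11.5 in miR-142-5p-EVs, 8.4, 22.2 and 11.3 in miR-183-5p-EVs, and 16.0, 32.5 and 12.0 in miR-222-3p-EVs. These are counts of at most 32.5 reads, and 8 of the 9 miRNA-EV libraries lay above the 3 controls, the lowest of the 8 at 11.3 reads. Atm-204, with 6.28% of TPM and 1.14% of reads, was estimated at 19.8, 0 and 0 reads in ctrl-EVs and at 12.0 to 49.7 in the miRNA-EV libraries. The mean transcript length of Atm was accordingly shorter after miRNA-EVs, at 6949 ± 505 nt in ctrl-EVs (SD, n = 3) and 5641 ± 1183, 6390 ± 862 and 5502 ± 1170 nt in the 3 miRNA groups, with values that overlapped between groups.

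**Figure D4:**
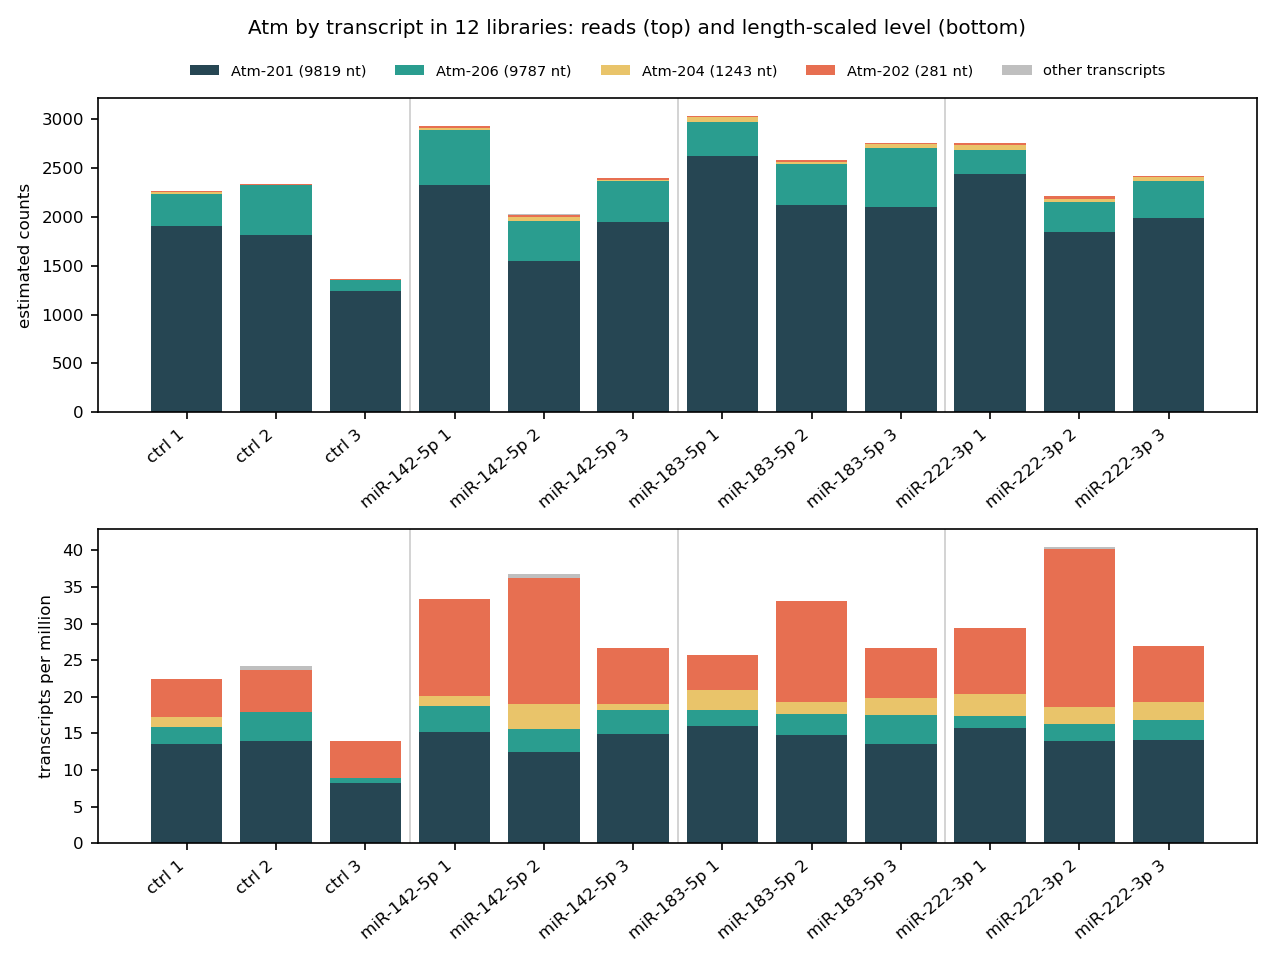
Atm in each of the 12 libraries as stacked bars, in estimated counts (top) and in TPM (bottom), with 1 colour per transcript. Nearly all reads belong to Atm-201 and Atm-206 and are fewest in control library 3, while Atm-202, with 8.4 to 32.5 reads, takes a large part of the TPM and is tallest in miR-222-3p-EVs 2.

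Counted over protein-coding transcripts alone, Atm stood at 15.9, 18.5 and 8.94 TPM in ctrl-EVs, 18.8, 16.2 and 18.2 in miR-142-5p-EVs, 18.2, 17.7 and 17.5 in miR-183-5p-EVs, and 17.4, 16.5 and 16.8 in miR-222-3p-EVs. Here control library 2 was again above 8 of the 9 miRNA-EV libraries, control library 1 lay just under the lowest of them, and control library 3 was far below. Paired by number, Atm was higher than its own control in 9 of 9 pairs on length-adjusted counts and in 7 of 9 pairs in CPM. In number 3, the log2 CPM ratios of Atm over control library 3 were 0.82 to 0.92. The medians in the same libraries were 0.44 to 0.46 for genes of at least 7000 nt. They were 0.22 to 0.23 for genes from 4000 to under 7000 nt. Whether these differences share a cause was not tested.

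The genes whose length-adjusted level followed Atm most closely over the 12 libraries, among 10856 genes, included Ermp1 (Pearson r = 0.936), Hnrnpa3, Piwil2 and Dip2b (0.918). After the mean of each number was taken away they were Ubr2 (0.946), Prpf8, Ptk6, Ermp1 and Cbx5 (0.922). Without the length adjustment another 5 genes led, Arfgef3 (0.979), Vps13a, Hipk2, Peak1 and Macf1 (0.961). Among the other members Atr was most like Atm, at 0.855 on length-adjusted counts and 0.912 without the adjustment, against a median of −0.07 and −0.08 over all genes. After the mean of each number was taken away, Atr was at 0.623 and Prkdc at 0.581 on length-adjusted counts, and without the adjustment Prkdc (0.852) was above Atr (0.825). These correlations describe the same 12 libraries that share depth, length composition and numbering.

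With all 12 libraries, none of the other 9 members differed from ctrl-EVs at an adjusted p under 0.05 in any comparison. Over all 13906 genes the DESeq2 fit without the number called 0.00719% of genes in the miR-142-5p-EVs comparison (1 gene, the predicted gene Gm8430, named after its values were seen) and 0% in each of the other comparisons. At an unadjusted p under 0.05 the same fits held 101 genes in miR-222-3p-EVs, 73 in miR-142-5p-EVs, 138 in miR-183-5p-EVs and 231 over all miRNA-EVs. With the number as a block, DESeq2 called 0.0647% of genes in miR-222-3p-EVs, 0.0575% in miR-142-5p-EVs, 0.41% in miR-183-5p-EVs and 1.6% over all miRNA-EVs, and 1 of the 10 members, Atm, in each. Atm was not called by edgeR with the block, where its adjusted p was 0.0567 over all miRNA-EVs and 0.33 to 0.42 in the single comparisons, nor by the blocked DESeq2 fit without the length adjustment (0.0893 over all miRNA-EVs) or with protein-coding transcripts only (0.14). The count of 1 of 10 is fixed by how Atm was chosen and is not read against these shares. For the same reason the adjusted p-values of Atm only describe how the fits differed, and are no test of its change.

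Among the kinases, Atr, which guards replication forks, was at 115, 137 and 98.8 CPM in ctrl-EVs, 145, 116 and 124 in miR-142-5p-EVs, 140, 126 and 130 in miR-183-5p-EVs, and 133, 130 and 126 in miR-222-3p-EVs. Control library 3 was lowest here too, and the groups overlapped. The blocked log2 fold change for all miRNA-EVs was 0.21 ± 0.08, with an adjusted p of 0.18 by DESeq2, and it was 0.12 ± 0.09 without control library 3. Without control library 2 it was 0.35 and past the threshold, as was the value of 0.39 for miR-183-5p-EVs alone. Prkdc, the kinase of non-homologous end joining, was at 77.9, 45.1 and 56.0 CPM in ctrl-EVs and at 38.4 to 94.996 in the miRNA-EV libraries, with a blocked log2 fold change of 0.16 ± 0.11 that became −0.06 ± 0.08 without control library 3. In miR-142-5p-EVs, whose seed matches the Prkdc 3′ UTR, Prkdc stood at 74.4, 45.2 and 94.996 CPM. Its blocked log2 fold change there was 0.19 ± 0.15, and over left-out libraries ran from −0.03 to 0.35. Against the control library of the same number, its length-adjusted log2 ratios there were −0.14, 0.04 and 0.72 in numbers 1 to 3. The effector kinases were the least abundant in reads. Chek1, which carries the ATR signal, was at 16.8 to 37.5 CPM (blocked log2 fold change 0.17 ± 0.11, and 0.07 without control library 2), and Chek2, which carries the ATM signal, at 22.8 to 29.1 CPM (0.03 ± 0.10, and −0.01 without control library 3).

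The adaptor genes code for proteins that gather at marked chromatin beside a break. Trp53bp1 was at 105, 124 and 101 CPM in ctrl-EVs and at 95.3 to 138 in miRNA-EV libraries, with a blocked log2 fold change of 0.17 ± 0.09 and an adjusted p of 0.32 by DESeq2. This became 0.05 without control library 3 and 0.26 without control library 1. Mdc1 was at 145, 157 and 151.4 CPM in ctrl-EVs and at 109 to 208 in miRNA-EV libraries, with 0.04 ± 0.14, and this became −0.18 ± 0.13 without control library 3. In the miRNA groups Mdc1 was high in library 3, at 208, 200 and 198 CPM, and at 109 to 142 in libraries 1 and 2.

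Trp53 RNA was not called in any comparison. It stood at 169, 104 and 187 CPM in ctrl-EVs, 178, 108 and 158 in miR-142-5p-EVs, 165, 112 and 172 in miR-183-5p-EVs, and 190, 115 and 177 in miR-222-3p-EVs. In each group the library of number 2 was low. The blocked log2 fold change for all miRNA-EVs was −0.01, with a 95% interval of −0.16 to 0.15. Mdm2 was at 86.9, 124 and 92.8 CPM in ctrl-EVs, 92.1, 129 and 94.4 in miR-142-5p-EVs, 86.3, 139 and 92.7 in miR-183-5p-EVs, and 85.8, 134 and 97.9 in miR-222-3p-EVs. Its blocked log2 fold change was 0.15, with an interval of −0.03 to 0.33, and it ran from 0.05 without control library 2 to 0.27 without control library 3. Cdkn1a was at 86.9, 173 and 96.2 CPM in ctrl-EVs, 117, 163 and 87.2 in miR-142-5p-EVs, 100.2, 143 and 76.9 in miR-183-5p-EVs, and 115, 158 and 91.7 in miR-222-3p-EVs. Its blocked log2 fold change was 0.00, with an interval of −0.19 to 0.20. Without control library 3 the values of Trp53 and Cdkn1a were 0.10 and 0.12. For both p53 target genes, summed over all transcripts, the number 2 library was the highest of its group, whichever EVs were given.

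Next, p53 outputs were followed more broadly, with a list of 36 genes known to be transcribed under p53, of which 33 passed the filter (Plk2, Perp and Eda2r did not). With the block and all miRNA-EVs, 1 of 33 was called higher and 0 lower, where 1.6% of all genes were called. Of the 33, 17 were above 0, against 50.3% of all genes. Their median log2 fold change was 0.00, as it was over all genes tested. The 3 separate comparisons called 0 of 33 each, with medians of 0.03 in miR-222-3p-EVs, 0.00 in miR-142-5p-EVs and −0.04 in miR-183-5p-EVs. The gene called was Trp53inp1, a stress-induced partner of p53, at 0.39 ± 0.12 (adjusted p = 0.039 by DESeq2), and without control library 3 it was at 0.31 with an adjusted p of 0.18. The 6 outputs with the highest level were Bax (267 TPM), Cdkn1a, Pmaip1 (90.4), Mdm2, Ei24 (68.0) and Btg2 (66.6). Bax and Pmaip1 promote cell death at the mitochondrion, and their blocked log2 fold changes were −0.15 ± 0.08 and 0.09 ± 0.09. Ei24 was at −0.03 ± 0.07 and the antiproliferative gene Btg2 at −0.04 ± 0.06. Without control library 3, Bax was at −0.04 over all miRNA-EVs, and in miR-222-3p-EVs it went from −0.07 to 0.04, while Ei24 was at −0.11 over all miRNA-EVs.

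Of the other lists, 0 of 23 genes of damage sensing and checkpoints and 0 of 20 genes of double-strand break repair were called in any comparison, with or without the block. Of the 7 tested regulators of p53, 2 were called higher for all miRNA-EVs with the block, where 1.6% of all genes were called. These were Usp7, a deubiquitinase that acts on MDM2 and p53, at 0.26 ± 0.07 (adjusted p = 0.019), and Hipk2, a kinase that phosphorylates p53, at 0.41 ± 0.12 (adjusted p = 0.039), both by DESeq2. In the same fit, 1 of 8 genes of the ATM kinase family and its assembly factors was called higher. This was Smg1, the kinase of nonsense-mediated decay, at 0.32 ± 0.08 (adjusted p = 0.013 by DESeq2). Without control library 3, Usp7 was still called (0.27 ± 0.08, adjusted p = 0.031), whereas Hipk2 (0.17 ± 0.08, adjusted p = 0.24) and Smg1 (0.22 ± 0.09, adjusted p = 0.12) were not. None of these 3, nor Trp53inp1, was called without the length adjustment, with protein-coding transcripts only or by edgeR with the block. The edgeR values were close to those of DESeq2, at 0.25 for Usp7, 0.40 for Hipk2, 0.31 for Smg1 and 0.38 for Trp53inp1. Without the length adjustment they were 0.16, 0.39, 0.30 and 0.27. With protein-coding transcripts only, Usp7 stood at 0.07 ± 0.09 (adjusted p = 0.75 by DESeq2), and the other three at 0.35, 0.35 and 0.49.

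To separate isoform shifts from change of the whole gene, transcripts were tested singly and as shares of their gene. Of the 77 transcripts of the members, 56 passed the filter. In DESeq2 tests of single transcripts 0 of 56 were called in any comparison, with or without the block. The share of all 47135 transcripts called without the block was 0.0806% in miR-222-3p-EVs, 0.0785% in miR-142-5p-EVs, 0.0721% in miR-183-5p-EVs and 0.0785% over all miRNA-EVs, and with it 0.376%, 0.274%, 0.469% and 1.77%.

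Isoform usage, tested per gene with edgeR in 9534 genes, was called without the block in 0.147%, 0.042%, 0.178% and 0.22% of genes for the same 4 comparisons in that order, and in 0 members. With the block it was called in 0.451%, 0.336%, 0.283% and 0.755% of genes, and in 1 member, Atr, in the miR-183-5p-EVs comparison. Atr usage there had an adjusted p of 0.0627 without the block and 0.0248 with it, and 0.988 by limma. The transcript behind it was Atr-213, whose share of Atr had an adjusted p of 0.0371 without the block and 0.0146 with it, where 0.0557% and 0.079% of 43054 transcripts were called. Its estimated reads were 101, 0 and 56.6 in ctrl-EVs, 0, 22.8 and 109 in miR-142-5p-EVs, 0, 0 and 0 in miR-183-5p-EVs, and 0, 0 and 29.2 in miR-222-3p-EVs. One control library had none either, and libraries at 0 reads were found in every group. Atr-213 held 0.83% of Atr TPM and shared 98.1% of its bases with Atr-201, both of 47 exons, so reads were divided between near copies. Atr-201 itself carried 1423 to 2894 reads.

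Other members showed wide swings between near-identical transcripts that did not follow the EV groups. Trp53-201 and Trp53-203 differ by 1 exonic base, and Trp53-201 held between 26.4% and 88.2% of Trp53 TPM. Mdm2-209, a nonsense-mediated decay transcript, lies wholly within Mdm2-201, whose share ran from 5.2% to 63.8%. Gene sums were steadier than either transcript. Chek1 and Trp53bp1 were spread over many transcripts, with 60.3% and 66.1% of TPM on non-coding ones, whereas Prkdc and Cdkn1a were almost all on a single coding transcript (98.0% and 93.0%). Mean transcript length and the share of the main transcript were compared with exact permutation tests, two-sided, for the 9 members other than Atm in the 4 comparisons, 36 tests of each measure. None passed after Benjamini-Hochberg adjustment. The lowest p was 0.127 for length (adjusted p = 0.72) and 0.0364 for share (adjusted p = 0.864, Chek1-207, 32.7% in miRNA-EVs against 38.9% ± 6.51 in ctrl-EVs, n = 9 against 3), while 3 against 3 libraries cannot go below 0.1.

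The number of the library, which is no condition of the study and whose meaning is not stated, went with calls in more of these genes than the EVs did. For Atm the sizes were alike on length-adjusted counts. Its log2 ratio was 0.62 for number 2 over numbers 1 and 3, and 0.60 for all miRNA-EVs in the blocked fit. By the DESeq2 likelihood ratio test of the number, 69.4% of all genes were called, and 9 of the 10 members. The adjusted p was 7.6e-21 for Cdkn1a, 9.5e-19 for Mdm2, 2.9e-14 for Atm and 1.4e-13 for Trp53. Chek2 was not called (adjusted p = 0.32), and Mdc1, at 0.030 by DESeq2, was at 0.055 by edgeR. By DESeq2, Mdc1 was at 7.0e-06 without control library 3 and at 5.0e-04 without the length adjustment. Chek2 was at 0.57 and 0.48 in these fits. Given the 69.4%, being called is the usual case for a gene in these libraries.

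The direction was not the same for all members. In length-adjusted counts, number 2 over the mean of numbers 1 and 3 was higher by a log2 ratio of 0.83 for Cdkn1a, 0.82 for Mdm2, 0.62 for Atm, 0.47 for Trp53bp1 and 0.43 for Atr. It was lower for Prkdc (−0.74), Trp53 (−0.63) and Chek1 (−0.45). In CPM, the 4 libraries of number 2 lay above all 8 others for Cdkn1a (159 ± 12.6 against 105 ± 14.1 and 88.0 ± 8.26, SD, n = 4) and for Mdm2 (131 ± 6.24 against 87.8 ± 2.90 and 94.5 ± 2.42). They lay below all others for Trp53 (110 ± 4.63 against 175 ± 11.05 and 174 ± 12.3), for Prkdc (43.8 ± 3.64 against 75.4 ± 3.08 and 82.9 ± 18.1) and for Chek1 (18.8 ± 2.78 against 35.5 ± 2.27 and 33.5 ± 2.01). For Atm the CPM of number 2 (131 ± 6.04) overlapped the others (128 ± 8.45 and 109 ± 28.0). So Trp53 RNA was low in the libraries in which its targets Cdkn1a and Mdm2, summed over all transcripts, were high. Over protein-coding transcripts alone, Mdm2 did not stand apart by number. It was at 42.6 to 79.1 CPM in number 2, 37.9 to 77.0 in number 1 and 28.6 to 70.6 in number 3.

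**Figure D5:**
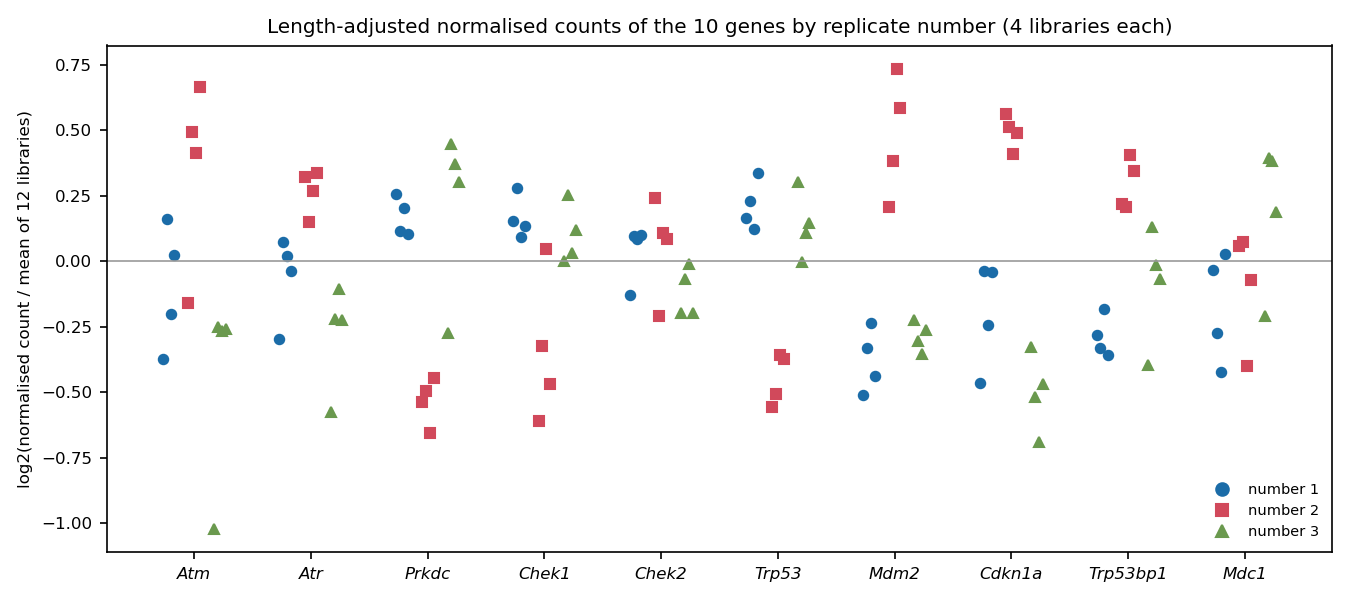
Length-adjusted normalised counts of the 10 members, as log2 of the ratio to the mean of the 12 libraries, with 1 point per library coloured by its number. Libraries of number 2 lie above all others for Atr, Mdm2, Cdkn1a and Trp53bp1 and below all others for Prkdc and Trp53, with 4 libraries per number.

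Of the 33 p53 outputs tested, 29 were called for the number, 20 of them higher and 9 lower in number 2, while over all genes 4678 were higher and 4973 lower. Number 2 lay above all other libraries for 14 of the 33 and below them for 5, together 57.6% of the list, against 41.3% of all genes for either direction. Named here after their values were seen, Zmat3 (1.70), Trp53inp1 (1.30), Polk (1.05), Tnfrsf10b (1.04) and Ercc5 (0.996) had the highest log2 ratios of number 2, and Gadd45a (−1.03), Pidd1 (−0.98) and Sesn2 (−0.92) the lowest. Damage sensing and break repair genes leaned the other way, with 13 of 23 and 12 of 20 called lower in number 2 and 7 and 4 called higher.

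RefSeq promoter windows were searched on both strands for a p53-type element, CATGNNNNNNCATG. Of the members with a window, only Cdkn1a held it (GRCm38, plus strand, chr17:29090901-29090974, element in capitals).
Cdkn1a promoter: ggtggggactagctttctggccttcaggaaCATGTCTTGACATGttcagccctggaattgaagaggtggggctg
The element ends 35 bases before the start of Cdkn1a-202 and 2825 bases before that of Cdkn1a-201, which held 93.0% of Cdkn1a TPM. It occurred in 0.712% of 32851 promoter windows and in 0.833% of the 27025 genes with a window. By gene, it was in 1 of the 9 members with a window (Prkdc had none) and in 1 of 27 p53 outputs, Cdkn1a in both cases. No match in the other windows says only that these letters are not there.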

How the data were processed

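RNA-Seq of 12 RAW264.7 libraries was analysed, in 4 groups of 3 given by the sample titles. The authors made stranded poly(A) libraries, quantified read pairs against mouse transcripts with Salmon, and deposited, per transcript, an expected count (estimated reads) and a TPM value. Which Ensembl release underlies the files was not settled, since the methods and the file labels differ. Of 118783 transcripts, 98.181% were matched by identifier to GENCODE genes on GRCm38, and unmatched ones held 0.605% to 0.707% of the counts.

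Counts were summed to genes, rounded, and kept where at least 3 libraries had at least 10. DESeq2 1.42.0 (R 4.3.3) tested each miRNA group, and all 9 miRNA-EV libraries, against ctrl-EVs, with average transcript length as an offset and a Benjamini-Hochberg adjusted p under 0.05 as the threshold. The replicate number was added as a block, since same-numbered libraries correlated in all 18 pairs (0.409 to 0.797). The pairing comes from the numbers in the titles. Isoform usage was tested with edgeR 4.0.16 and limma 3.58.1, and exact permutation tests used scipy 1.17.1. Replicates of a group were compared for duplicates, and the chi-square per degree of freedom between them was at least 27.4.

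On simulated data for miR-142-5p-EVs against ctrl-EVs (200 of 13669 genes changed 2-fold), DESeq2 recovered 49.5% without the block and 96.0% with it, where 10.3% of calls were false. edgeR recovered 0% without the block and 98.0% with it, where 4.85% of calls were false. The simulated spread by number and the dispersion were set and not estimated from these libraries. Alternatives were edgeR, no filter, no length offset, protein-coding transcripts only, only the 2 groups compared, the mean of the 3 contrasts, and leaving out each library. The coding-only fits and the blocked fits without a library were chosen after seeing the data.

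The members and gene lists were chosen with earlier results of these data known. Named were the members, their transcripts with at least 5% of the TPM or a call, list genes called by DESeq2, the 6 p53 outputs with the highest TPM, and, by Pearson correlation, the 5 genes most like Atm among those with a mean of at least 50 normalised counts. Intervals of fold changes are 95% normal intervals from the SE. Antisense or overlapping genes and near-identical transcripts can exchange estimated reads. One gene that the rule for named genes selected is not reported here.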

Additional observations from a re-analysis of the deposited data

How the results depend on the processing

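DESeq2 without and with the replicate block called 0 and 9 genes in miR-222-3p-EVs, 1 and 8 in miR-142-5p-EVs, 0 and 57 in miR-183-5p-EVs, 0 and 223 over all miRNA-EVs, and 1 and 12 for any difference among the 4 groups. The blocked counts without the length offset were 6, 4, 32, 153 and 4, and with protein-coding transcripts only 8, 9, 38, 153 and 16. edgeR called 0 genes in miR-142-5p-EVs and among the 4 groups, with and without the block, and protein-coding transcripts alone or only the 2 groups gave 0 for miR-142-5p-EVs. Leaving out 1 library, over all those fits, gave, in the same order, 0 to 110, 0 to 64, 0 to 209, 0 to 598 and 0 to 63 genes.

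Single transcripts called in the 4 comparisons, in that order, went from 38 to 177, 37 to 129, 34 to 221 and 37 to 835 with the block, and over left-out libraries ran 34 to 121, 33 to 123, 41 to 135 and 24 to 230. Genes with changed isoform usage were 14, 4, 17 and 21, against 43, 32, 27 and 72 with the block, and 4, 2, 2 and 2 with a filter of 50 counts. limma called 0, 0 and 1 in the 3 single comparisons. Over left-out libraries the ranges were 5 to 28, 3 to 21, 7 to 30 and 13 to 74.

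Of 1000 fold changes of members under alternatives, 8 changed sign beyond 1 SE, none of them called. Another 132 changed sign within 1 SE of the main value, also with no call. In miR-183-5p-EVs, Mdm2 stood at −0.31 with coding transcripts only and −0.25 with the block as well, and over left-out libraries, with and without the block, it ran from −0.15 (without miR-183-5p-EVs replicate 2) to 0.50. Over left-out libraries Chek2 in miR-183-5p-EVs ran from −0.10 to 0.23 and Cdkn1a over all miRNA-EVs from −0.19 to 0.39. Mdc1 ran from −0.11 to 0.30 in miR-142-5p-EVs and from −0.18 to 0.16 over all miRNA-EVs. The lowest values of Chek2 and Mdc1 came without control replicate 3, and the highest of Cdkn1a without control replicate 2. The cause was not tested. With all 12 libraries, the block changed no member's call other than Atm's and the Atr usage for miR-183-5p-EVs. Without control replicate 2, the blocked fit also called Atr, at 0.35 over all miRNA-EVs and 0.39 in miR-183-5p-EVs. Over left-out libraries the blocked value of Atm ran from 0.53 to 0.72 over all miRNA-EVs and from 0.41 (without miR-183-5p-EVs replicate 3) to 0.62 in miR-183-5p-EVs, as a description of the values by which it was chosen.

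With 3 against 3 libraries, edgeR recovered 0% of simulated 2-fold changes without the block and 98.0% with it. This holds for the spread and dispersion set in the simulation, and what edgeR could detect in the real libraries was not tested. Transcripts with few reads, such as Atm-202, limit every length-adjusted value.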
